A study of Columba livia with 10 samples.

Results

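Glycolysis splits glucose into pyruvate in the cytosol. Glucose enters cells through carriers of the SLC2A family, pyruvate is either passed to the mitochondria or reduced to lactate, and lactate crosses membranes on proton-coupled carriers of the SLC16A family. The brain depends on glucose from the blood, which in mammals crosses the endothelium of brain vessels through SLC2A1, and neurons and glia are thought to exchange lactate. A set of 10 genes for these steps was looked up by symbol in RNA sequencing of cerebellum from racing homers, a domestic pigeon (Columba livia) kept for flights back to its loft. Rows were present for 7 of the 10, among 22547 genes in all: the glucose carrier SLC2A1, the lactate and pyruvate carrier SLC16A1, and the glycolytic enzymes HK1, TPI1, GAPDH, PGAM1 and PKM. SLC2A3, LDHA and LDHB were not analysed here, so neither the ratio of the lactate dehydrogenase subunit genes nor that of both glucose carriers could be computed.

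The race group held 5 birds killed on their return from a competition flight of 300 km, while 5 birds equal in age rested in the loft that day as controls. All 10 came from a single loft, were fed on the schedule used for competition and were trained by widowhood, in which mates are kept apart. The labels give neither the sex of a bird nor the time between landing and death. Whole cerebellum was extracted as total RNA, and its integrity numbers were 9.6 to 10.0 per the labels. In such bulk tissue fewer cells of a type and less RNA per cell cannot be told apart, and with 1 library per bird the p-values rest on differences among libraries of a group.

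The libraries held 17953704 to 23344086 gene counts, and no pair agreed within sampling noise (lowest chi-square 27.6 per gene over 45 pairs). For 9 of the 10 tables the library number differs from that in the sample title, and 6 tables would change group if titles were followed, so every direction below rests on the sample record. Control 1 stood apart, with a TMM scaling factor of 0.794 against 0.977 to 1.052 in the other libraries. Control 3, control 4 and control 5 had 93 to 95 of 195 protein-coding genes of the W chromosome at 1 CPM (counts per 1000000 counts of a library) or more, against 24 to 33 in the other 7 libraries. Females carry the W chromosome in birds. The sum of 11 forebrain markers was 313 CPM in control 4 and at most 51.7 CPM elsewhere. The 9 granule cell markers in the tables summed to 3658 to 4888 CPM in race and 2390.1 to 5139.5 CPM in control libraries. They were thus present in every library, and their lowest sum was in control 4, the library with the high forebrain sum. None of the 7 genes lies on a sex chromosome in assembly bColLiv1.pat.W.v2, and each was counted often, from 830 reads for SLC16A1 in the library with fewest to 135879 for GAPDH in that with most. Levels are compared between libraries and not between genes, because no transcript lengths were used.

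The question was whether these genes differed between birds that had flown and birds that had rested. None of the 7 passed. Mean levels of 6 were lower in race libraries and that of SLC16A1 was close to equal, with a median log2 fold change of -0.46 against -0.03 over all 14172 genes tested. Control 1 was the highest library for each of the 7. Without it the median was -0.22, against -0.02 over all genes, 5 of 7 values were negative, and TPI1 kept most of its difference. Among the controls left, control 3, control 4 and control 5 had high W-linked expression. No race library had it, and its part in these values was not tested.

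By edgeR's quasi-likelihood test 0 of 7 members passed an adjusted p of 0.05, and over all genes the share was 0.0%. The lowest adjusted p of any gene was 0.267. At an unadjusted p under 0.05, SLC2A1 and TPI1 were lower, 2 of 7, and 0 were higher, where 7.14% of all genes were lower and 6.19% higher. Without control 1 the count was 1, TPI1, beside 8.21% of all genes lower and 6.99% higher, and again 0 of 7 members and 0.0% of all genes passed the adjusted threshold. In 0 of the 7 genes did all race libraries lie on a single side of all control libraries, with or without control 1. Over all genes that share was 4.33%, and 6.53% without control 1.

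Other tests and libraries moved these counts. Limma voom passed 0 members and 0.0% of all genes in both comparisons, and at an unadjusted p under 0.05 it had 1 lower member with all libraries (4.52% of all genes) and 1 without control 1 (6.71%). DESeq2 passed 0 members with all libraries (1.84% of all genes) and 1 without control 1, TPI1 (adjusted p = 0.0334, beside 3.52% of all genes). Its lower members at an unadjusted p under 0.05 numbered 4 with all libraries (9.65% of all genes) and 2 without control 1 (8.6%). With control 3, control 4 and control 5 left out, the libraries of high W-linked expression, 5 race libraries stood against control 1 and control 2. There edgeR passed 23.2% of all genes, 12.7% in the lower direction, and 3 of 7 members, all lower: SLC2A1 (log2 fold change -1.2, adjusted p = 0.0154), PKM (-1.09, adjusted p = 0.0333) and PGAM1 (-0.94, adjusted p = 0.0419). At an unadjusted p under 0.05 that comparison had 4 lower members, where 21.2% of all genes were lower. Its controls, control 1 and control 2, also differed from every other library in read composition. Reads assigned to no gene feature made up 15.7% and 15.1% there, against 17.8% to 20.8% in the others. The gene LOC135578006 took 9.04% and 8.51% of gene counts, against at most 6.85%. The part of these differences in the calls was not tested.

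**Figure D1:**
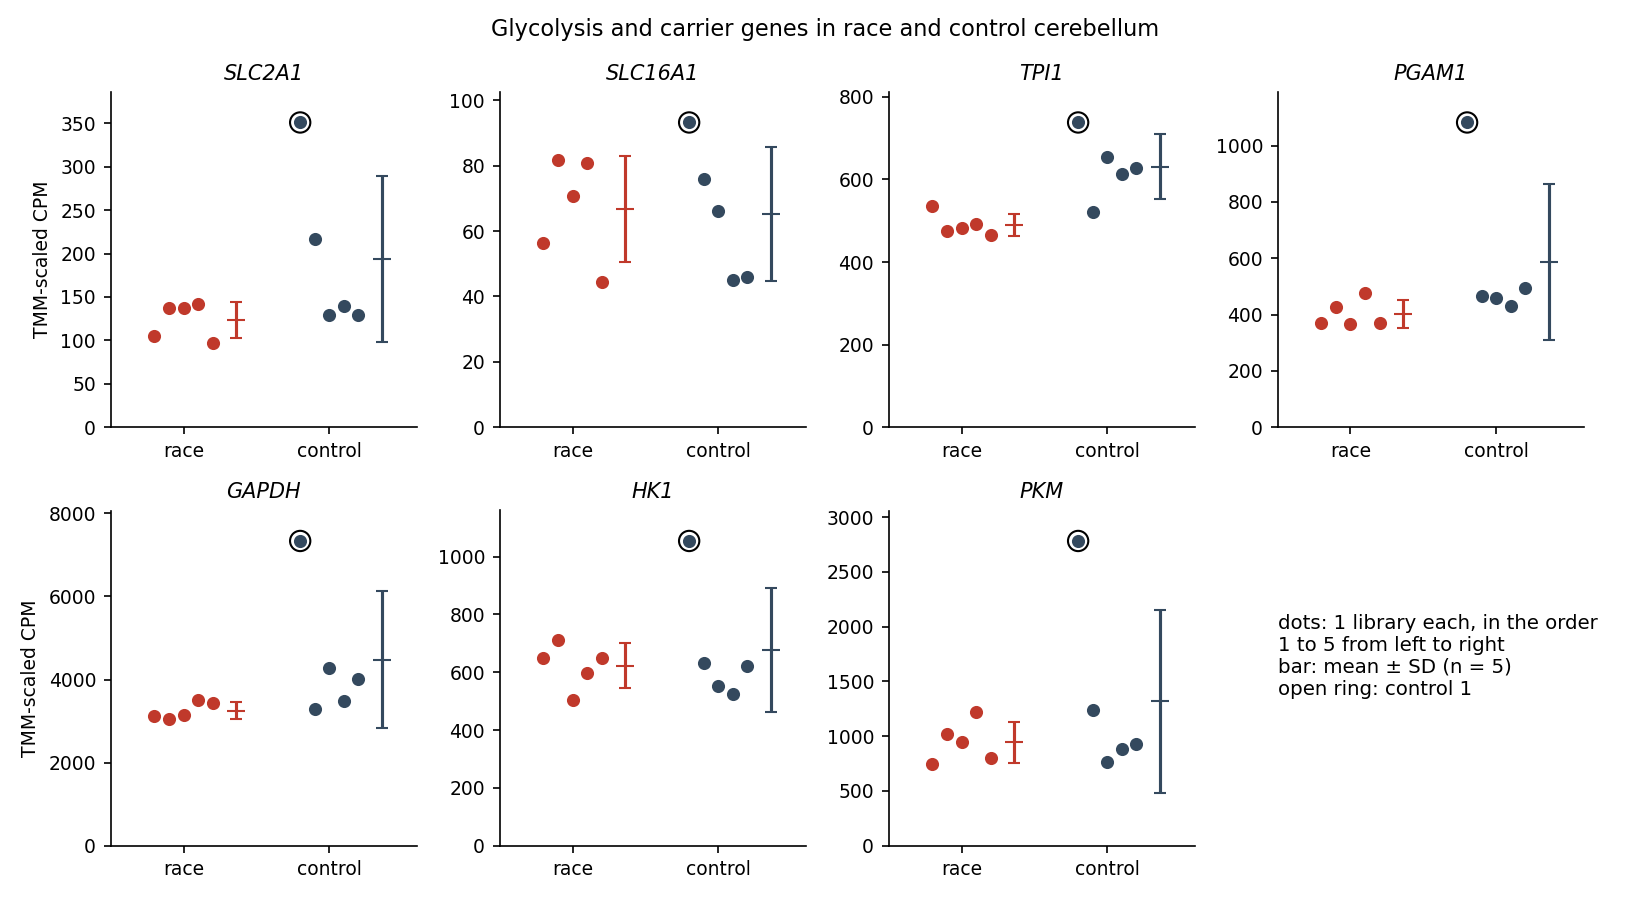
Level of each of the 7 genes in every library, in TMM-scaled CPM on linear axes from 0, race libraries on the left and control libraries on the right of each panel. Dots are libraries 1 to 5 of each group, bars show mean ± SD (n = 5), and the ring marks control 1, which is the highest library in every panel.

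SLC2A1 encodes the glucose carrier that in mammals serves the blood-brain barrier and red blood cells. The race libraries, from race 1 to race 5, held 105, 137, 137, 142 and 96.7 CPM, against 351, 217, 129, 139.8 and 129 CPM from control 1 to control 5. Control 1 and control 2 were above all race libraries, while the other 3 controls lay within the race values. The means were 123 ± 20.8 CPM in race and 193 ± 95.5 CPM in control libraries (SD, n = 5 each). By edgeR the log2 fold change was -0.65 ± 0.28 (SE; adjusted p = 0.363), the most negative of the 7. Without control 1 it was -0.34 ± 0.19 (adjusted p = 0.424), a smaller difference that also missed the threshold.

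Vessel content was read from 14 endothelial markers, whose summed level was 129.6 to 288 CPM in race and 154 to 248 CPM in control libraries. Of these markers 9 were positive and 5 negative in log2 fold change (median 0.28). At an unadjusted p under 0.05 by edgeR, 3 of 14 were higher and 0 lower, where 6.19% of all genes were higher and 7.14% lower. Without control 1 the count was 1 higher and 0 lower, beside 6.99% and 8.21% of all genes. The 7 pericyte markers summed to 121 to 224 CPM in race and 117 to 269 CPM in control libraries. Of the pericyte markers 6 were positive and 1 negative (median 0.24). At the same unadjusted threshold 2 of 7 were higher and 0 lower, with or without control 1. SLC2A1 thus differed in sign from the medians of both lists. In control 1, the highest library for SLC2A1, the pericyte sum was also the highest of all libraries, at 269 CPM. Its endothelial sum of 248 CPM was the highest of the controls and below the race maximum of 288 CPM. The markers' part in the SLC2A1 values was not tested. In the annotation SLC2A1 overlaps ZMYND12, a gene at 2.96 CPM in race and 5.69 CPM in control libraries on average.

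SLC16A1 carries lactate, pyruvate and ketone bodies together with a proton. From race 1 to race 5 it stood at 56.2, 81.7, 70.6, 80.8 and 44.3 CPM, and from control 1 to control 5 at 93.2, 75.8, 66.2, 44.9 and 46 CPM. Both groups spanned nearly the same range, and the lowest library was race 5. By edgeR the log2 fold change was 0.03 ± 0.24 (adjusted p = 0.962), and 0.18 ± 0.22 without control 1 (adjusted p = 0.747). Its sign was negative under some of the other settings tried, so it has no direction here. BSG, which encodes the chaperone that brings this carrier to the cell surface in mammals, averaged 261 ± 52.4 CPM in race and 368 ± 167 CPM in control libraries (SD, n = 5 each). Control 1 alone held 660.5 CPM of BSG, and the log2 fold change was -0.5 with all libraries and -0.2 without it.

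HK1 encodes the hexokinase that traps glucose in brain cells by phosphorylating it. It held 650.2, 711, 503, 599 and 648 CPM from race 1 to race 5, against 1054, 633, 551, 525 and 620.4 CPM from control 1 to control 5. Apart from control 1 the groups overlapped, and 3 race libraries stood above the other 4 controls. The log2 fold change was -0.12 ± 0.21 by edgeR (adjusted p = 0.8). Without control 1 its sign turned, to 0.08 ± 0.13 (adjusted p = 0.814), and with offsets for gene span it was -0.31. These offsets take out differences between libraries that follow the genomic length of a gene, which is 33442 bases for HK1.

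TPI1 encodes triosephosphate isomerase, which interconverts the products of the aldolase reaction. Its levels were 535, 475, 483, 492 and 465 CPM from race 1 to race 5, and 738, 521, 655, 614 and 628 CPM from control 1 to control 5. Each race library lay below each control library except control 2, which race 1 exceeded. Apart from control 1, control 2 was the only control without high W-linked expression. The means were 490 ± 27.2 CPM in race and 631 ± 78 CPM in control libraries (SD, n = 5 each), or 605 ± 58.2 CPM in the 4 controls without control 1. The log2 fold change by edgeR was -0.37 ± 0.14 (-22.4%, adjusted p = 0.34) with all libraries and -0.32 ± 0.11 (-19.9%, adjusted p = 0.227) without control 1. With gene span offsets it was -0.16 (TPI1 spans 2988 bases), and with groups taken from the sample titles it was 0.05. TPI1 overlaps PHB2 in the annotation, and PHB2 had a log2 fold change of -0.16.

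GAPDH, the enzyme that makes NADH from glyceraldehyde 3-phosphate, is often used as a reference gene in expression studies. The race libraries held 3119, 3041, 3141, 3517 and 3441 CPM in order of their number, and the control libraries 7336, 3280.4, 4288, 3486 and 4020.2 CPM. Control 1, control 3 and control 5 lay above all race libraries, while control 2 and control 4 lay within them. The log2 fold change was -0.46 ± 0.23 by edgeR (adjusted p = 0.397), and -0.23 ± 0.13 without control 1 (adjusted p = 0.442). With gene span offsets it was -0.22 with all libraries.

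PGAM1 encodes phosphoglycerate mutase, the next step but one after GAPDH. It stood at 370.1, 428, 365, 478 and 371 CPM from race 1 to race 5. In the controls it was 1082, 465, 458, 430 and 495 CPM from control 1 to control 5. Control 1 was far above the other 4, which lay close together. Race 4 was the only race library above the lowest of the controls. The log2 fold change was -0.54 ± 0.26 by edgeR (adjusted p = 0.387), and -0.22 ± 0.12 without control 1 (adjusted p = 0.416). With gene span offsets it was -0.23.

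PKM encodes pyruvate kinase, which makes pyruvate and ATP in the last step. It held 742, 1016, 945, 1219.8 and 802 CPM from race 1 to race 5, against 2783, 1239, 766, 882 and 927 CPM from control 1 to control 5. Without control 1 the groups nearly coincided, at 945 ± 189 CPM in race and 954 ± 202 CPM in control libraries (SD, n = 5 and 4). The log2 fold change by edgeR was -0.48 ± 0.34 (adjusted p = 0.513) with all libraries and -0.03 ± 0.19 (adjusted p = 0.955) without control 1. Of the 7 values, that of PKM moved most when control 1 was left out.

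**Figure D2:**
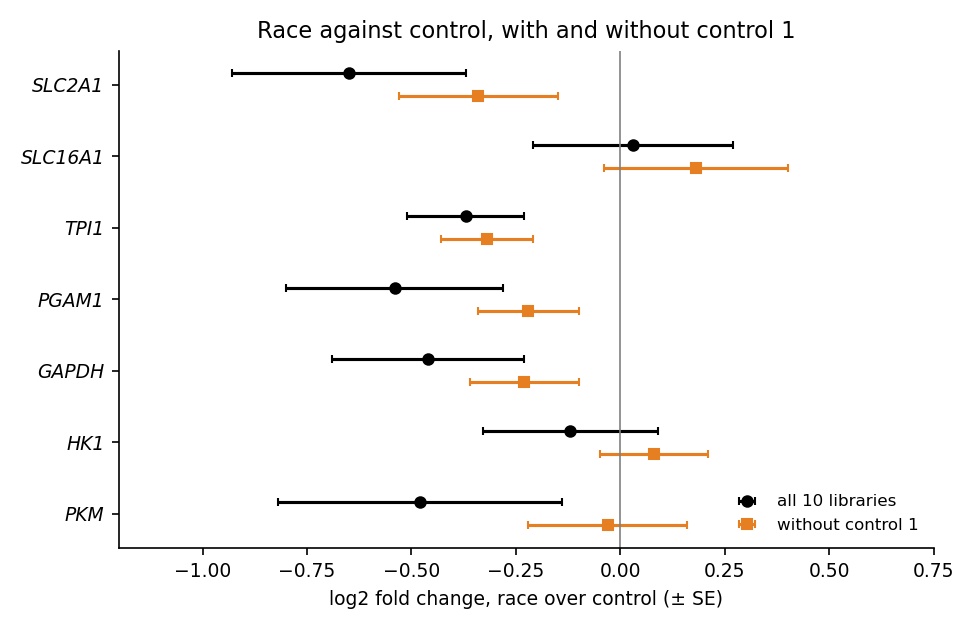
Log2 fold change of race over control for each of the 7 genes, with bars of 1 standard error, from all 10 libraries (circles) and without control 1 (squares). Every point lies further right without control 1: TPI1 moves from -0.37 to -0.32, and PKM from -0.48 to -0.03.

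The share of the difference that rested on control 1 differed from gene to gene. In PKM control 1 held 2.25 times the next highest library, in PGAM1 2.18 times, in GAPDH 1.71 times, in SLC2A1 1.61 times and in HK1 1.48 times. In TPI1 it held 1.13 times the next, and in SLC16A1 it stood at 93.2 CPM with race 2 next at 81.7 CPM. Over all genes tested, control 1 was the highest library for 31.4% and the lowest for 32.4%, so extreme values there were common in both directions. The members' mean log2 level relative to the mean of all libraries was 0.93 in control 1. It was -0.25, -0.04, -0.18, 0.03 and -0.31 from race 1 to race 5, and 0.11, -0.05, -0.17 and -0.07 from control 2 to control 5. Apart from control 1, the groups thus overlapped in this level.

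Among the race birds TPI1, GAPDH and PGAM1 varied least of the 7. The SD of log2 level over the race libraries was 0.08 for TPI1, 0.09 for GAPDH and 0.17 for PGAM1, against a median of 0.22 over all genes tested. It was 0.19 for HK1, 0.25 for SLC2A1, 0.28 for PKM and 0.37 for SLC16A1. In the controls without control 1 the SD was 0.08 for PGAM1, 0.13 for HK1, 0.14 for TPI1, 0.18 for GAPDH, 0.29 for PKM, 0.36 for SLC2A1 and 0.37 for SLC16A1, where the median of all genes was 0.29. Over the 7 genes, race 5 was the lowest library for 3, race 3 for 2, and race 1 and race 2 for 1 each.

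The other enzymes of the pathway were read from a list of 23, of which 18 were in the tables and 17 passed the low count filter, 5 members among them. In the comparison of all libraries, 0 passed the adjusted threshold, and 2 were lower and 0 higher at an unadjusted p under 0.05. Their median was -0.3, and -0.1 without control 1. PFKL, a subunit of the phosphofructokinase that commits sugar to glycolysis, held 100.2 to 169 CPM in race libraries, against 567 CPM in control 1 and 119 to 158 CPM in its 4 fellow controls. Its log2 fold change was -0.81 with and -0.1 without control 1. ALDOC, the brain aldolase, held 2539 to 3484 CPM in race libraries, against 10535 CPM in control 1 and 2115 to 3892 CPM in the remaining controls, and its log2 fold change stood at -0.6 with and -0.05 without that library.

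ENO1 encodes an enolase, and control 1 was its lowest control library. It held 648 to 793 CPM in race and 745 to 1199 CPM in control libraries, with a log2 fold change of -0.3 ± 0.17 by edgeR (adjusted p = 0.448). Without control 1 it was -0.37 ± 0.15 (adjusted p = 0.282). ENO2, the neuronal enolase, had log2 fold changes of -0.28 with and 0.15 without control 1.

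**Figure D3:**
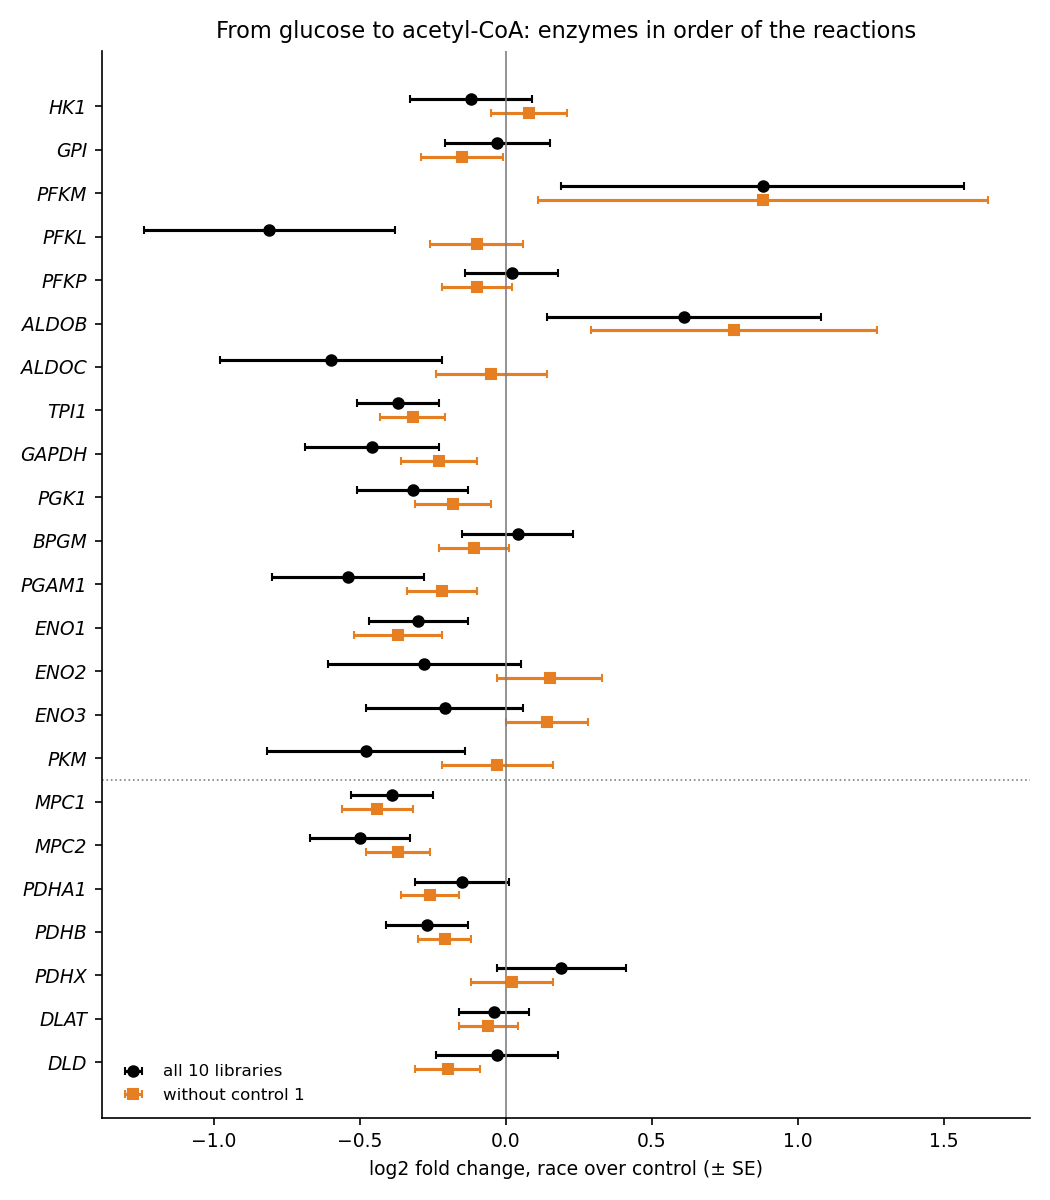
Log2 fold change of race over control with bars of 1 standard error for glycolytic enzymes of the list, from top to bottom in order of the reactions, and below the dotted line for the mitochondrial pyruvate carrier and pyruvate dehydrogenase genes. Circles use all 10 libraries and squares leave out control 1: PFKL and ALDOC move to near 0, while TPI1, ENO1, MPC1 and MPC2 stay below 0.

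Pyruvate enters mitochondria through a carrier built of MPC1 and MPC2. From race 1 to race 5 MPC1 stood at 136, 110.4, 105, 120.1 and 134 CPM, and from control 1 to control 5 at 144, 185, 162, 141 and 161 CPM. MPC2 held 50.6, 43.3, 53.7, 54.5 and 49.5 CPM from race 1 to race 5, against 98, 72.1, 60.2, 60.4 and 64.7 CPM from control 1 to control 5. For both genes every race library lay below every control library, control 1 or not. MPC1 had a log2 fold change of -0.39 ± 0.14 by edgeR (adjusted p = 0.328), and -0.44 ± 0.12 without control 1 (adjusted p = 0.194). MPC2 had -0.5 ± 0.17 (adjusted p = 0.324), and -0.37 ± 0.11 without control 1 (adjusted p = 0.197). Neither passed by edgeR in these comparisons. Without control 3, control 4 and control 5, edgeR passed MPC2 (log2 fold change -0.75, adjusted p = 0.0237). In that comparison 12.7% of all genes passed as lower. DESeq2 passed neither with all libraries (1.84% of all genes), and both without control 1 (3.52% of all genes). Its adjusted p without control 1 was 0.0371 for MPC1 and 0.0461 for MPC2.

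Pyruvate dehydrogenase, the complex that turns pyruvate into acetyl-CoA, has its first enzyme encoded by PDHA1 and PDHB. PDHB held 127 to 142 CPM in race and 143 to 201 CPM in control libraries, without overlap, and a log2 fold change of -0.27 ± 0.14 by edgeR (adjusted p = 0.404). PDHA1 held 114 to 142 CPM in race libraries, against 146 to 156 CPM in control 2 to control 5 and 99.1 CPM in control 1, the lowest of all. Its log2 fold change was -0.15 ± 0.16 by edgeR (adjusted p = 0.659), and -0.26 ± 0.1 without control 1 (adjusted p = 0.261). Of the 14 genes of pyruvate entry 3 did not overlap between groups, all lower in race libraries, where 1.67% of all genes tested were lower without overlap. Without control 1 there were 4, beside 3.07% of all genes. At an unadjusted p under 0.05 the list held 2 lower genes of 14 with all libraries, where 7.14% of all genes were lower, and 3 without control 1, where 8.21% were. Its median was -0.03 and -0.12, and 0 passed the adjusted threshold in either comparison.

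**Figure D4:**
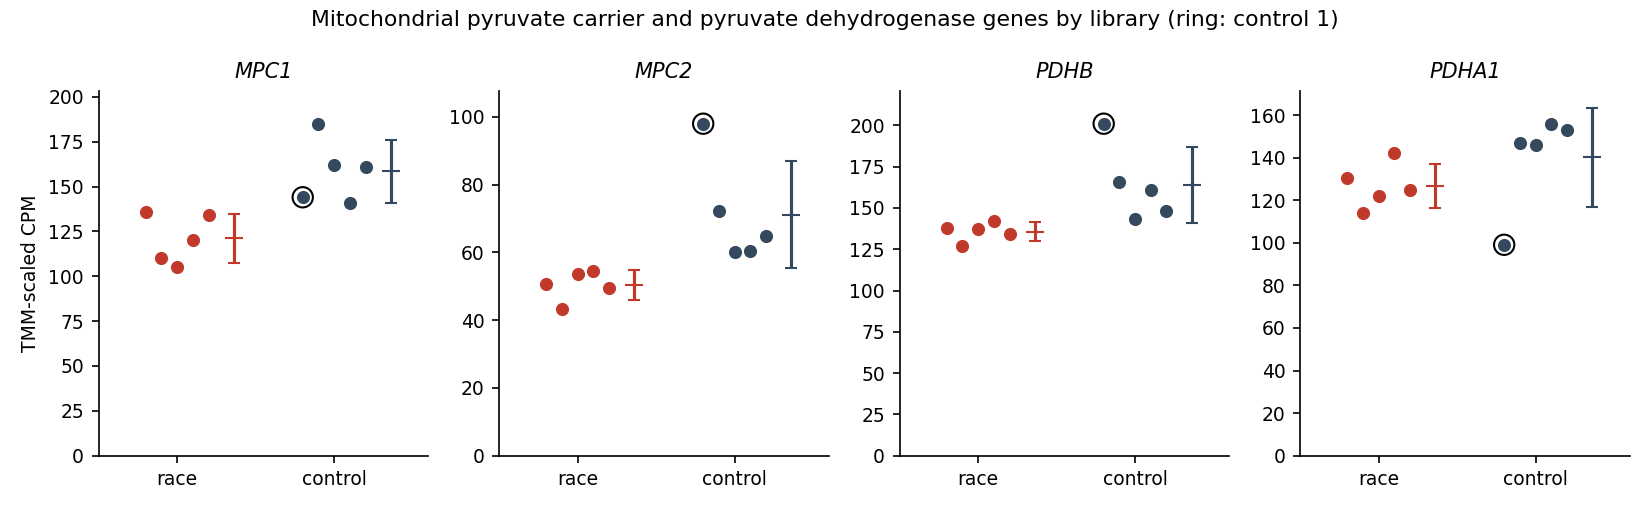
Level of 4 genes of mitochondrial pyruvate entry in every library, in TMM-scaled CPM on linear axes from 0, race libraries on the left and control libraries on the right, with mean ± SD (n = 5) and a ring at control 1. In MPC1, MPC2 and PDHB all race libraries lie below all control libraries, and in PDHA1 they lie below all but control 1.

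Further lists around glucose use also gave 0 genes past the adjusted threshold. Together the 9 pathway lists held 91 tested genes, of which 4 were higher and 8 lower at an unadjusted p under 0.05, or 4.4% and 8.79%, beside the 6.19% and 7.14% of all genes. Without control 1 there were 7 higher and 11 lower, or 7.69% and 12.1%, beside 6.99% and 8.21% of all genes. Among 8 tested glucose carriers the median was -0.06. SLC5A1, a sodium-coupled glucose carrier, averaged 6.44 CPM in race and 2.81 CPM in control libraries (log2 fold change 1.19), and SLC2A8, an intracellular carrier, stood at 0.43. SLC2A12, which stood at -0.48, was at -0.61 without control 1. Of 6 tested genes for lactate handling LDHD, a mitochondrial dehydrogenase of D-lactate, had the smallest p. It averaged 1.65 CPM in race and 4.01 CPM in control libraries, with a log2 fold change of -1.28 by edgeR (adjusted p = 0.307). The list's median was -0.02.

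Regulators of glycolysis had a median of -0.01 over 11 tested genes, with 2 higher and 0 lower at an unadjusted p under 0.05, where 6.19% of all genes were higher and 7.14% lower. PRKAA1, a catalytic subunit of AMP-activated protein kinase that senses low energy, held 94.3 to 117 CPM in race and 32.5 to 90.1 CPM in control libraries, without overlap. Of all genes 2.65% were higher without overlap, and 3.46% without control 1. Its log2 fold change was 0.68 ± 0.23 by edgeR (adjusted p = 0.326) and 0.49 without control 1. There DESeq2 passed PRKAA1 (adjusted p = 0.0495), beside 3.52% of all genes. PRKAA1 lies on the Z chromosome, of which female birds have a single copy, and control 3, control 4 and control 5 had high W-linked expression. The part of this in the PRKAA1 values was not tested. Without control 3, control 4 and control 5, the log2 fold change of PRKAA1 was 0.9 by edgeR (adjusted p = 0.0595). PRKAA1 held 32.5 CPM in control 1 and 79.2 CPM in control 2, the controls without high W-linked expression. Control 3, control 4 and control 5 held 69.3, 90.1 and 55.7 CPM. MLXIP, a glucose-responsive transcription factor, stood at 0.71.

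Glycogen genes had a median of 0.11 over 14 tested. PHKA2, a regulatory subunit of phosphorylase kinase, had a log2 fold change of 0.4. PHKA1, another regulatory subunit gene, held 57.4 to 75.5 CPM in race libraries. It stood at 118 CPM in control 1 and at 36.9 to 45.9 CPM in control 2 to control 5. Its log2 fold change was 0.22 with all libraries and 0.65 ± 0.12 without control 1 by edgeR (adjusted p = 0.12). DESeq2 passed PHKA1 without control 1 (adjusted p = 0.000181), beside 3.52% of all genes. G6PC3 and G6PC1, glucose-6-phosphatases, stood at -0.78 and 0.42 (-0.25 and 1.06 without control 1) in a list of 4 tested genes of gluconeogenesis with a median of 0.04.

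In the pentose phosphate pathway, which branches off after hexokinase, 2 genes were lower and 1 higher at an unadjusted p under 0.05, of 7 tested with a median of -0.06, where 7.14% of all genes were lower and 6.19% higher. PGD, which makes NADPH, averaged 80.3 CPM in race and 109.5 CPM in control libraries (log2 fold change -0.45), and PGLS stood at -0.87, or -0.45 without control 1. H6PD, its counterpart in the endoplasmic reticulum, stood at 0.41, or 0.47 without control 1. There DESeq2 passed H6PD (adjusted p = 0.028), beside 3.52% of all genes. The shuttles that carry reducing power of cytosolic NADH into mitochondria had a median of -0.21 over 10 tested genes, with GPD1 at -0.75 and the oxoglutarate carrier SLC25A11 at -0.61 (-0.18 without control 1). MDH1, a malate dehydrogenase, stood at -0.16, or -0.3 without control 1.

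Markers of other cells were read from lists, with sums that overlapped between groups in every list. By edgeR 0 markers passed the adjusted threshold, where 0.0% of all genes passed. At an unadjusted p under 0.05, 6 of 11 oligodendrocyte and 4 of 12 astrocyte markers were lower, beside 7.14% of all genes. In these lists 0 markers were higher. Without control 1 these counts were 5 and 3, beside 8.21% of all genes. For oligodendrocytes the median over 11 tested markers was -0.7 and 11 of 11 were negative, and the 12 markers in the tables summed to 2360.1 to 4347 CPM in race and 2774 to 6223 CPM in control libraries. Of 12 astrocyte markers 9 were negative, and the sum was 3094 to 4693 CPM in race and 3469 to 6268 CPM in control libraries, highest in control 1. Red blood cells, nucleated in birds, were read from 7 markers summing to 9 to 23.6 CPM in race and 10.9 to 44.1 CPM in control libraries, again highest in control 1. The sum for choroid plexus was 30.6 to 71.4 CPM in race and 33.1 to 153 CPM in control libraries. For microglia it was 49.5 to 62.8 CPM in race and 19 to 75.6 CPM in control libraries, and for Purkinje cells 1396 to 1809 CPM in race and 1315 to 1890.5 CPM in control libraries. The part of these cells in the values of the 7 genes was not tested.

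By Spearman correlation of their levels over the 10 libraries, given as a description, the members had different patterns. The gene most like SLC16A1 was SLC2A4RG (0.964) and that most like TPI1 was TSPAN13 (0.939), while 4 genes, among them KCNAB2, were equally close to SLC2A1 (0.988). For PKM 3 genes ranked the libraries identically, among them CDIP1. FEZ1 was among 4 genes closest to PGAM1 (0.952), BOLA3 among 2 closest to GAPDH (0.939) and DLG3 among 2 closest to HK1 (0.952). Among the members themselves the closest pair was SLC2A1 and PKM (0.879), and HK1 and GAPDH were furthest apart (-0.103). Within each library all genes share its depth and scaling in these values, and control 1 ranks first for each member.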

How the data were processed

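RNA sequencing of the cerebellum of 10 birds was deposited as 1 table per bird. Each holds raw read counts per gene, deposited with no normalization by the authors. The submitters' processing notes list STAR 2.7.10a, HTSeq 0.13.5, fastp 0.23.2, FastQC 0.11.5 and MultiQC 1.14. Genome build, annotation, strand setting and counting parameters: not given in the sources used here.

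Library sizes and tests left out rows that name no gene, which held 18.1% to 23.4% of the counts. These include reads aligned to more than 1 place (2.37% to 3.9%) and reads on overlapping genes (0.184% to 0.249%), so genes with near-identical copies are uncertain. Groups follow the treatment label of the sample record each table is attached to. The low count filter was edgeR's filterByExpr at a minimum of 10 counts, and CPM values (counts per 1000000) are on the TMM scale. The comparison used the quasi-likelihood test of edgeR 4.0.16 in R 4.3.3 with limma 3.58.1. Tests were two-sided, p-values were Benjamini-Hochberg adjusted over every gene kept, and the threshold was 0.05. The fit was made with all libraries and again without control 1. Standard errors come from the fold change divided by the root of F. Tested on simulated data with these group sizes and 14041 genes, it recovered 45% of 2-fold and 93% of 4-fold changes, with 3 false among 141 calls. The changes were placed in well counted genes only. Each gene was drawn independently around a common mean, so the simulation held no outlying library like control 1 and no shifts shared between genes.

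RefSeq's gene table for bColLiv1.pat.W.v2 matched 22268 of 22547 names and served for gene spans, overlaps and sex chromosomes. The members, 9 pathway lists and 10 marker lists were chosen with earlier results of these data known. Beside the members the text names the 2 non-members of smallest p in each pathway list, except that some are not reported here, and the most alike genes. Chosen after their values were seen were PDHB, PDHA1, ENO1, ENO2, ALDOC, PHKA1, H6PD, SLC2A12, MDH1 and the genes that overlap a member. Tried as alternatives were other scalings (RLE, library size alone), other low count filters, limma voom, DESeq2 1.42.0, fewer libraries, gene span offsets, grouping by sample title, and library sizes without LOC135578006 and ribosomal RNA genes.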

Additional observations from a re-analysis of the deposited data

Results flagged for a closer look

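In 13 of 46 groups of 5 libraries, over the members and the genes named from the lists, the highest or lowest library stood further from the rest than Dixon's 95% critical value of 0.71 allows. Chance flags about 1 in 20 independent groups, but these groups share their libraries, and genes named from the lists were chosen by small p. The share flagged over all genes was not computed, so whether the count is particular to these genes is not known. Of the 13 flags 10 were control 1, the highest library for 31.4% of all genes tested and the lowest for 32.4%. Of the members, PGAM1 in control 1 was at 1082 CPM against 430 to 495 CPM in the other controls, GAPDH at 7336 CPM against 3280.4 to 4288 CPM, HK1 at 1054 CPM against 525 to 633 CPM, and PKM at 2783 CPM against 766 to 1239 CPM. In that library PFKL stood at 567 CPM, BSG at 660.5 CPM, SLC25A11 at 305 CPM, PGLS at 51.8 CPM, G6PC3 at 49.9 CPM and G6PC1 at 2 CPM, each above the other controls. In the other libraries PFKL was at 169 CPM and SLC5A1 at 10.8 CPM in race 2, and LDHD at 8.05 CPM in control 4, each the highest of its group.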

How the results depend on the processing

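The link of tables to groups is unsettled. On simulated data without an outlying library, the test recovered 45% of 2-fold changes placed in well counted genes. Each of the 7 genes had at least 830 reads in every library. Grouping by sample title turned the most values. With all libraries it gave log2 fold changes of -0.42 for SLC16A1, 0.05 for TPI1, -0.16 for SLC5A1, 0.71 for LDHD, 0.08 for MPC1, -0.72 for G6PC1 and 0.11 for PGD, with 0 members lower at an unadjusted p under 0.05 and 3 genes past the adjusted threshold. Without control 1 it gave -0.32 for SLC16A1, 0.19 for TPI1, 0.14 for PGAM1, 0.26 for GAPDH, -0.08 for HK1, -0.41 for SLC5A1, -0.19 for PRKAA1, 1.03 for LDHD, 0.08 for MPC2, 0.1 for MPC1, -0.43 for G6PC1, 0.29 for PGD, 0.07 for PGLS and 0.53 for GPD1, with a members' median of -0.08, 0 lower members and 3 genes past the threshold. The cause was not tested.

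Without control 3, control 4 and control 5, SLC2A1 stood at -1.2, PGAM1 at -0.94, PKM at -1.09, SLC16A1 at -0.34 and G6PC1 at -0.28. That comparison passed 3 members, 26 pathway genes and 3416 genes in all, with 4 members lower at an unadjusted p under 0.05. With control 1 also left out, which leaves control 2 alone and assumes that it varies like the race libraries, SLC16A1 stood at -0.21, HK1 at -0.05 and GPD1 at 0.02, and 2 pathway genes and 296 genes in all passed. Without control 1 and control 4, HK1 stood at 0.03, with 1 lower member and 40 genes past the threshold. DESeq2 passed 261 genes with all libraries, and without control 1 it passed 504 genes, 6 pathway genes and 1 member, TPI1 at -0.32. Its lower members at an unadjusted p under 0.05 were 4 and 2, and limma voom had 1 with all libraries. Plain library size gave 0 lower members, 0.02 for HK1 and, without control 1, 0.03 for PKM; it put the median of all genes at 0.07, against -0.03 by TMM. Gene span offsets gave -0.01 for SLC16A1, 1 lower member with all libraries and 0 without control 1. With all libraries these offsets put the members' median at -0.23, against -0.46 in the main fit, and that of all genes at -0.05. The share of all genes lower is not given for plain library size, gene span offsets, title grouping or without control 1 and control 4. Those counts of lower members are thus not a result about the members. With no low count filter and no control 1, 14 genes passed. Without LOC135578006 and ribosomal RNA genes in the library sizes, the race mean was 525 CPM for TPI1 and 3485 CPM for GAPDH.

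With each library left out in turn from all 10, SLC16A1 ranged from -0.08 to 0.18, HK1 from -0.2 to 0.08, lower members from 0 to 4 and genes past the threshold from 0 to 1. The lower members numbered 4 without control 4, and 0 without race 2, without race 3 or without race 5. For these refits the share of all genes is not given, so the counts are not a result about the members. Starting without control 1, PKM ranged from -0.14 to 0.12, PFKL from -0.23 to 0.000588, lower members from 1 to 2 and genes past the threshold from 0 to 106, with 106 without control 2 and 40 without control 4. No paired analysis was possible, because the groups held different birds and the labels give no pairing. The replicate numbers used here only name the libraries. The planned ratios of LDHA to LDHB and of SLC2A1 to SLC2A3, and their alternative prior count, were not run.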
